A study of Drosophila melanogaster with 24 samples.

Results

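Insertions of transposable elements that are listed as rows of their own in 2 expression tables of Drosophila melanogaster were described here. A row was taken if its identifier marks an annotated insertion (FBti) and its FPKM was 1 or more in at least 3 samples of the table. FPKM is the number of fragments per kilobase of the row, scaled to the library. The rule left 461 of 3075 insertion rows in the embryo table and 269 of 5736 in the larval table. In all, 625 insertions passed in either table, and 105 passed in both. The rows were thus chosen by their FPKM over all samples of a table, so those levels are given as a description. The samples were Sima 1/20 mutants and Sima 1/+ controls. Both genotypes thus carried allele 1 of sima, the gene of the fly hypoxia-inducible factor alpha subunit. They differed in the homologous chromosome, which carried allele 20 or the wild-type allele of sima. Whole embryos came from 3 windows after egg laying, 8-12 h, 12-16 h and 16-20 h, and whole larvae from 60 h. With 2 genotypes this gave 8 groups, and every group held 3 samples. The labels do not say that these came from separate cultures, so p-values measure only the spread between samples, which may be technical. The strain background of the alleles is not given in the sources used here, and a strain difference in which insertions are present cannot be told apart from an effect of genotype.

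Transposable elements are stretches of DNA that copy or move themselves within a genome. Long terminal repeat (LTR) retrotransposons, such as copia, roo and 297, copy themselves through an RNA that is read back into DNA, as retroviruses do. Non-LTR retrotransposons, such as the I element, Doc and jockey, also move through RNA, and the non-LTR elements HeT-A and TART maintain the ends of fly chromosomes. DNA elements such as 1360, S and pogo move through a transposase that acts on their inverted ends. INE-1 is an old and abundant family of short remnants in the fly genome. In the fly germ line and ovary, small piRNAs guide Piwi proteins to the transcripts of these elements and silence them.

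The rows were of very unequal quality. With the whole annotated span as length and 1 denominator per library, 100% of the low values of insertion rows in both tables came out as whole fragments, with a tolerance of 0.02. Insertion lengths in the embryo table had a median of 235 bp and ran from 28 to 9109 bp, and 248 of the 461 were shorter than 300 bp. In the larval table the median was 383 bp, and 118 of 269 were shorter than 300 bp. Since 1 FPKM of a short row is very few fragments, only 200 of the embryo rows and 145 of the larval rows had at least 10 fragments in at least 3 samples. INE-1 gave 185 embryo rows and 103 larval rows but a median of only 4.03% and 2.27% of the fragments on all rows over the level.

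**Figure D1:**
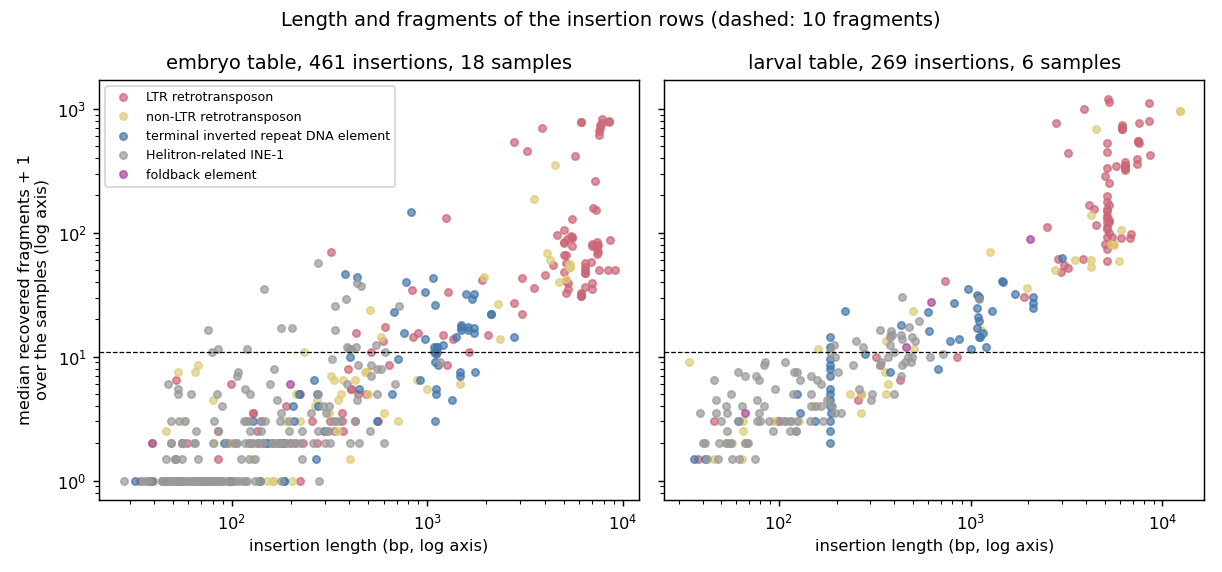
Length of each insertion in base pairs (log axis) against its median number of recovered fragments plus 1 (log axis), with 461 insertions of the embryo table on the left and 269 of the larval table on the right, coloured by element class. Most rows shorter than 300 bp lie under the dashed line at 10 fragments, while the rows with most fragments are long LTR retrotransposons.

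The just-passing rows show what the threshold selects. In embryos, the INE-1 row FBti0061281 passed with a third-highest FPKM of 1.01 and at most 5 fragments, and the roo row FBti0019985 missed with 0.996 and at most 10 fragments. In larvae, the R1-2 row FBti0061157 passed with 1.01 and at most 4 fragments, and the flea row FBti0019207, 5019 bp long, missed with 0.999 and as many as 78 fragments.

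By position in the BDGP6 assembly, 264 embryo rows lay in introns, 25 touched an exon and 172 lay between genes. The larval rows divided into 186, 16 and 67. The embryo rows came from chromosome arms 2R (183), 3L (163) and 3R (115) only, because other arms are not in the part of the table analysed here. Insertions inside introns reached the level more often than those between genes. Of the intronic insertions on the strand of the gene, 8.43% passed in larvae, as did 7.12% of those on the opposite strand and 2.30% of those between genes. In embryos the shares were 22.1%, 20.0% and 10.5%. Fragments of the element's own transcript and of the unspliced transcript around it cannot be told apart in these tables.

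Copies of a family cannot be taken as independent measurements. The 7 near-full-length Burdock rows of larvae, 6403 to 6414 bp long and on different chromosomes, carried almost the same number of fragments in each sample, with the highest copy 1.09 to 1.18 times the lowest. The 4 long 3S18 rows of larvae differed by 1.05 to 1.18 times. By contrast, the 5 Transpac rows differed by 7.99 to 17.2 times, and the 4 long copia rows of embryos by 1.90 to 6.60 times. How a fragment that matches several copies was counted is not given in the sources used here, so rows of a family are reported together below, and a count of rows is not a count of active insertions.

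The FPKM denominators, in units of 1000000 fragments, were 6.60 to 13.4 in embryos and 10.3 to 15.2 in larvae, and insertion rows took 0.161% to 0.330% of these. The sima row itself checked the labels only in part, since transcripts of the mutant alleles may still be counted. Its FPKM was lower in all 3 mutant samples than in all 3 controls at every stage, for example 1.19 to 1.31 in mutant larvae and 1.56 to 1.64 in controls, a log2 difference of -0.21 (limma adjusted p = 0.19). At 12-16 h and 16-20 h its adjusted p was 0.023 and 0.021.

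The most abundant insertion rows of embryos, by median FPKM, were 3 rows in 1 gene and 3 others. FBti0060150 and FBti0060147 (INE-1) and FBti0061159 (gypsy10) lie within introns of gus, a gene of the 2R arm whose own mean FPKM in controls was 23.3 at 8-12 h and 12.0 at 16-20 h. The gypsy10 row had 27.9, 34.6 and 33.7 in 8-12 h controls and 16.5, 16.3 and 16.3 in 16-20 h controls. The INE-1 row FBti0062449, of 76 bp, lies in an intron of conu. The other 2 were adjoining pieces of 3S18, an LTR retrotransposon. The longer piece, FBti0062016 (chr3L:5115368-5119249, minus strand), had FPKM values of 26.8, 21.0 and 25.1 in 8-12 h controls. In larvae the 3S18 pieces were again among the highest, joined by FBti0019444 (Transpac), FBti0018951 (accord), FBti0019430 (Doc) and the 34 bp jockey row FBti0063829, whose 17.8 to 27.1 FPKM were 7 to 14 fragments.

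Summed over all insertion rows, the fragments per 1000000 of the denominator were lower in mutant than in control embryos, with no overlap at any of the 3 stages. At 8-12 h the controls had 2282 ± 135 (SD, n = 3) and the mutants 1954 ± 95.4. At 12-16 h the values were 2296 ± 153 and 1796 ± 188, and at 16-20 h they were 2579 ± 88.8 and 2329 ± 89.4. In larvae the groups overlapped, with 2873 ± 383 in controls and 2804 ± 235 in mutants. This summed level counts a fragment for each row it was assigned to and was given no test.

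In the limma fit to all rows of the embryo table, 33 of the 461 insertion rows passed an adjusted p of 0.05 between genotypes at 8-12 h, 9 higher and 24 lower in mutants. The background over all 7267 rows tested was 5.85%. At 12-16 h 76 passed, 19 higher and 57 lower, against a background of 30.4%. At 16-20 h 72 passed, 20 higher and 52 lower, against 15.6%. As shares of all 461 rows these were 7.16%, 16.5% and 15.6%, so they lay near the background at the first and last stage and below it at 12-16 h. Among the 200 rows with at least 10 fragments in at least 3 samples, 15.5%, 32.5% and 29% passed. The background was not limited by fragments in this way. By direction, the background was 2.52% higher and 3.33% lower at 8-12 h, 16.9% and 13.5% at 12-16 h, and 8.30% and 7.35% at 16-20 h. The 3 samples of each genotype did not overlap for 104 rows (22.6%) at 8-12 h, 107 (23.2%) at 12-16 h and 95 (20.6%) at 16-20 h, beside 29.7%, 39.8% and 39.6% of all rows. These counts are descriptions, because 35 insertion rows reached an FPKM of 1 in no mutant sample and 10 in no control sample, and such rows, here called rows of 1 genotype, had to differ. They gave 14 of the 33 calls at 8-12 h, 21 of the 76 at 12-16 h and 19 of the 72 at 16-20 h. Rows with few samples over the level in a genotype, which may owe their place to the other, are not in this count. Where a row of 1 genotype is named, its values are given as a description, with no test. The median log2 fold change of the insertion rows was -0.01, -0.09 and -0.04 at the 3 stages, beside 0.01, 0.01 and -0.03 over all rows.

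The element 297, an LTR retrotransposon, has 8 embryo rows, of which 7 were over the level in control samples only. Those 7 gave all 7 calls of the family at 8-12 h, all 7 at 12-16 h and all 6 at 16-20 h, each lower in mutants, so the family's counts are read as a description only. One of them, FBti0020059 (chr3L:7377371-7380418, plus strand), lies in an intron of SMSr, on the strand opposite to the gene. Its FPKM at 8-12 h was 4.21, 3.70 and 4.09 in controls and 0.772, 0.699 and 0.953 in mutants. At 12-16 h it was 2.48, 2.54 and 2.02 in controls and 0.306, 0.641 and 0.553 in mutants. The 16-20 h controls had 1.96, 1.83 and 1.68, and the mutants 0.547, 0.445 and 0.567. No mutant sample came near a control sample at any stage. The log2 fold changes on the log2(FPKM + 1) scale, which understates changes of low rows, were -1.47, -1.16 and -0.89 at the 3 stages. SMSr itself did not pass the test at any stage, with log2 fold changes between -0.12 and -0.02. The rows FBti0019353, which overlaps an exon of CG18545 on the opposite strand, and FBti0215274, in an intron of CG41520, are rows of 1 genotype too, with log2 fold changes between -0.94 and -1.21.

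Stalker2, another LTR retrotransposon, held a median of 17% of the fragments on the embryo rows. Its 4 near-full-length rows fell at each stage, and its 2 shorter rows, both in introns of AGO3, passed at none. FBti0020153 (chr3L:18710814-18718708, minus strand), which lies between genes, had FPKM values of 11.7, 11.3 and 11.7 in 8-12 h controls and 6.74, 6.65 and 6.13 in mutants. The 12-16 h controls had 11.1, 11.5 and 10.5, and the mutants 6.16, 4.52 and 5.67. At 16-20 h the level was higher in both genotypes, with 18.3, 16.8 and 15.4 in controls and 10.1, 9.63 and 8.76 in mutants. The groups did not overlap at any stage. Log2 fold changes were -0.74, -0.91 and -0.76 (SE 0.09 each), with limma adjusted p of 0.00016, 1.7e-05 and 0.00011.

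The non-LTR I element has 9 embryo rows, none of whose calls came from a row of 1 genotype. Of these rows, 1 fell at 8-12 h, 6 at 12-16 h and 6 at 16-20 h. FBti0020189 (chr3L:21365893-21371264, minus strand) had 1.00, 0.860 and 0.934 FPKM in 8-12 h controls and 0.410, 0.553 and 0.496 in mutants, which did not overlap and did not pass on the log2(FPKM + 1) scale (limma adjusted p = 0.087). At 12-16 h the controls had 2.78, 3.16 and 2.55 and the mutants 0.713, 0.524 and 0.665. At 16-20 h they had 2.54, 1.80 and 1.91 against 0.733, 0.597 and 1.23. In controls the level rose by 0.98 on the log2 scale between 8-12 h and 12-16 h, while mutants ran from 0.410 to 1.23 over all stages. The log2 fold changes between genotypes were -1.23 and -0.74 at the later stages (SE 0.12), with adjusted p of 1.7e-05 and 0.0014, and the stage difference had an adjusted p of 0.019. Among the mutant values only 1.23 was over an FPKM of 1. The row thus met the level through control samples, so its p-values are no support for an effect of genotype.

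The DNA element 1360, which has inverted ends, has 36 embryo rows, of which 6, 8 and 5 fell at the 3 stages and 2, 1 and 0 rose. At each stage 5 of the falls were the same long copies, all of them rows of 1 genotype that were over the level in control samples only. One of these, FBti0215157 (chr3L:25874544-25876028, plus strand), in an intron of l(3)80Fg, had 2.26, 1.96 and 1.40 FPKM in 8-12 h controls and 0.358, 0.205 and 0.217 in mutants. The 12-16 h controls had 4.16, 4.81 and 3.47, and the mutants 0.440, 0.421 and 0.535. At 16-20 h the controls had 1.78, 2.07 and 2.89 and the mutants 0.510, 0.498 and 0. Log2 fold changes were -1.18, -1.80 and -1.29. The other 4 such rows, FBti0215156, FBti0215096, FBti0215183 and FBti0215207, were 1477 to 1485 bp long and lie on 2R, 3L and 3R. The gene l(3)80Fg had mean FPKM values within 0.186 to 0.533 in all 6 groups. In the other direction, the 1360 row FBti0215150 was higher in mutants at 8-12 h and 12-16 h, with log2 fold changes of 0.76 and 0.63, although neither call held when only those 2 groups were fitted.

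The copia rows of embryos divided. FBti0019469 (chr3R:31413145-31418286, minus strand), in an intron of Gprk2 on the opposite strand, was over the level in control samples only. It had 2.79, 3.32 and 3.07 FPKM in 16-20 h controls and 0.560, 0.623 and 0.897 in mutants. Its log2 fold changes at the 3 stages were -0.90, -1.29 and -1.26, with no overlap at any stage. FBti0020099, between genes on 3L, was lower by similar amounts (-0.77, -1.12 and -1.0). FBti0020108, a copia of 5148 bp in bbg, did not pass at any embryo stage, with log2 fold changes of 0.06, -0.14 and 0.18. Unlike FBti0019469, the gene Gprk2 was higher in mutants at 12-16 h (log2 fold change 0.27, adjusted p = 0.022).

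**Figure D2:**
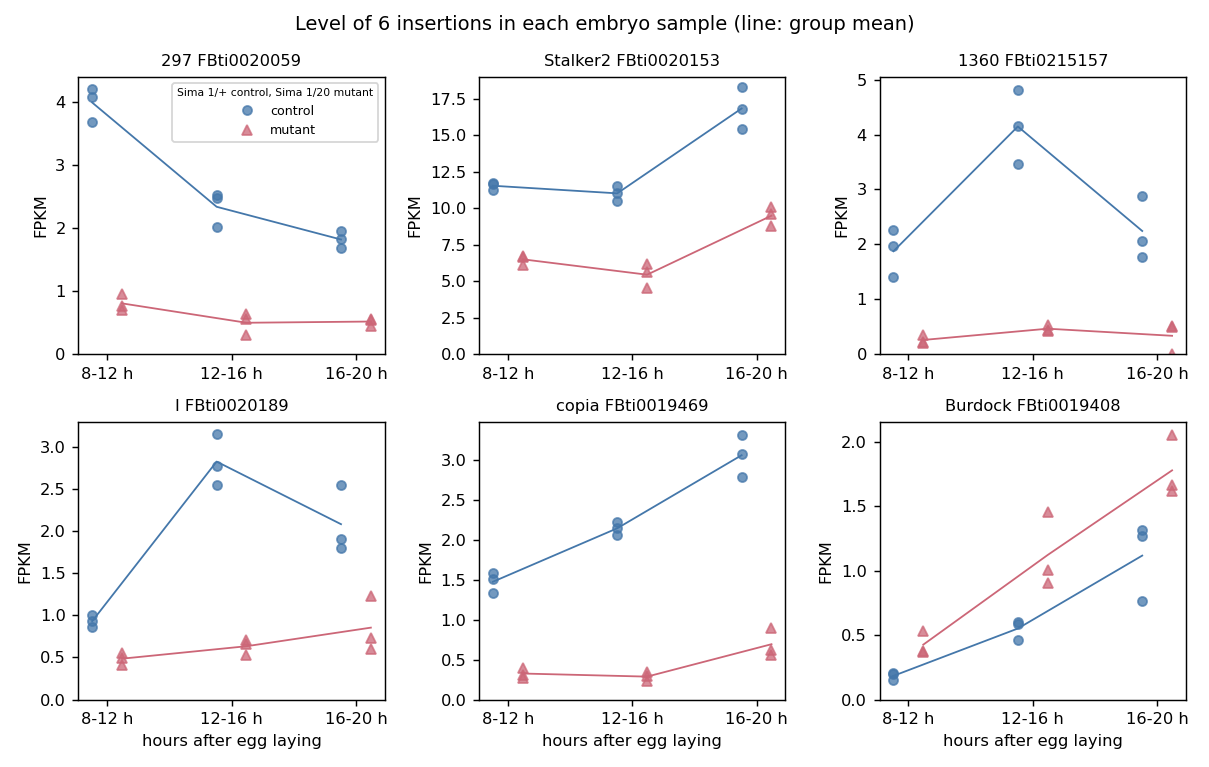
FPKM of 6 insertions in each of 18 embryo samples by hours after egg laying, with circles for Sima 1/+ controls, triangles for Sima 1/20 mutants and lines through the group means. In 5 panels the mutant samples lie under the controls, without overlap, while in the Burdock panel they lie above them.

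Burdock, an LTR retrotransposon, moved the other way. All 5 Burdock rows rose at 12-16 h and at 16-20 h, and none passed at 8-12 h. FBti0019408 (chr3R:20266571-20272984, plus strand), in an intron of cic, had 0.463, 0.603 and 0.587 FPKM in 12-16 h controls and 1.46, 0.902 and 1.01 in mutants. At 16-20 h the controls had 1.27, 1.31 and 0.766 and the mutants 2.05, 1.61 and 1.66. The groups did not overlap, with log2 fold changes of 0.44 and 0.40 (SE 0.12) and limma adjusted p of 0.013 and 0.038. These calls were weak, since the first was lost when only those 2 groups were fitted (adjusted p = 0.073) and the second in 4 of 6 fits that left out a sample. Of the control values at these 2 stages only 1.27 and 1.31 were over an FPKM of 1. The row thus met the level largely through mutant samples, so its embryo p-values are no support for an effect of genotype.

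Both springer rows, of 7543 bp each, rose at 8-12 h and 12-16 h and not at 16-20 h. FBti0020178 had 3.03, 3.57 and 3.68 FPKM in 8-12 h controls and 4.79, 5.68 and 5.41 in mutants, with log2 fold changes of 0.51 and 0.43 at the 2 earlier stages and 0.04 at the last. Both Transpac rows rose at 12-16 h only by the test. FBti0019444 (chr3R:27863009-27868256, minus strand), in an intron of CG34353, had 0.352, 0.435 and 0.302 FPKM in controls and 1.55, 1.15 and 1.36 in mutants at that stage. Its log2 fold change was 0.79 (SE 0.14) with a limma adjusted p of 0.0014. A short piece of Dm88, FBti0020330, lies 702 bp from the heat shock gene Hsp70Ba on the same strand. It had 2.75, 2.18 and 3.63 FPKM in 16-20 h controls and 6.17, 8.42 and 6.39 in mutants, with a log2 fold change of 1.06 (SE 0.18) and an adjusted p of 0.0019. Hsp70Ba had mean FPKM values of 3846 and 4775 in the same groups.

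3S18 changed direction with stage. At 12-16 h 4 of its 5 embryo rows were lower in mutants, and at 16-20 h all 5 were higher. FBti0062016 had 18.8, 21.3 and 15.9 FPKM in 12-16 h controls and 15.6, 13.9 and 14.9 in mutants. At 16-20 h the controls had 14.2, 17.1 and 14.7 and the mutants 21.3, 22.8 and 22.6. The log2 fold changes were -0.31 (SE 0.11, limma adjusted p = 0.047) and 0.51 (adjusted p = 0.0068). The first call was lost in 5 of 6 fits that left out a sample, while the second was kept in all 6. The 16-20 h calls of the 3S18 rows FBti0062015 and FBti0018869 were less stable, kept in 2 and 3 of 6 such fits. The stage difference of FBti0062016 had an adjusted p of 0.0074.

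The remaining embryo families gave smaller or fewer differences. The LTR element rover fell in 3 of 5 rows at 12-16 h and 4 of 5 at 16-20 h, of which 1 passed after quantile normalization. S, a DNA element, fell in 4 of 6 rows at both of these stages, 3 of them rows of 1 genotype. The rows of Max, which held a median of 11% of the fragments on embryo rows, passed between genotypes at no stage. Among the 185 INE-1 rows, 2 rose and 1 fell at 8-12 h, 4 rose and 6 fell at 12-16 h, and 4 rose and 11 fell at 16-20 h. The INE-1 row FBti0062497, 468 bp from CG14464, was higher at each stage, with 6.86, 8.34 and 7.38 FPKM in 8-12 h controls and 14.1, 15 and 15.2 in mutants. Its log2 fold changes were 0.89, 0.90 and 1.06 (SE 0.21), although the 8-12 h call (limma adjusted p = 0.024) was lost in 5 of 6 fits that left out a sample. Several INE-1 rows with large fitted changes rest on single fragments. FBti0059805, of 71 bp, was listed at 0 in all 9 mutant samples and in 5 of 9 control samples, and never had more than 7 fragments, so no fold is given for it. FBti0060422, FBti0061122, FBti0060394, FBti0061079, FBti0064022, FBti0060650 and the HB row FBti0060241 also had fewer than 10 fragments in every sample.

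**Figure D3:**
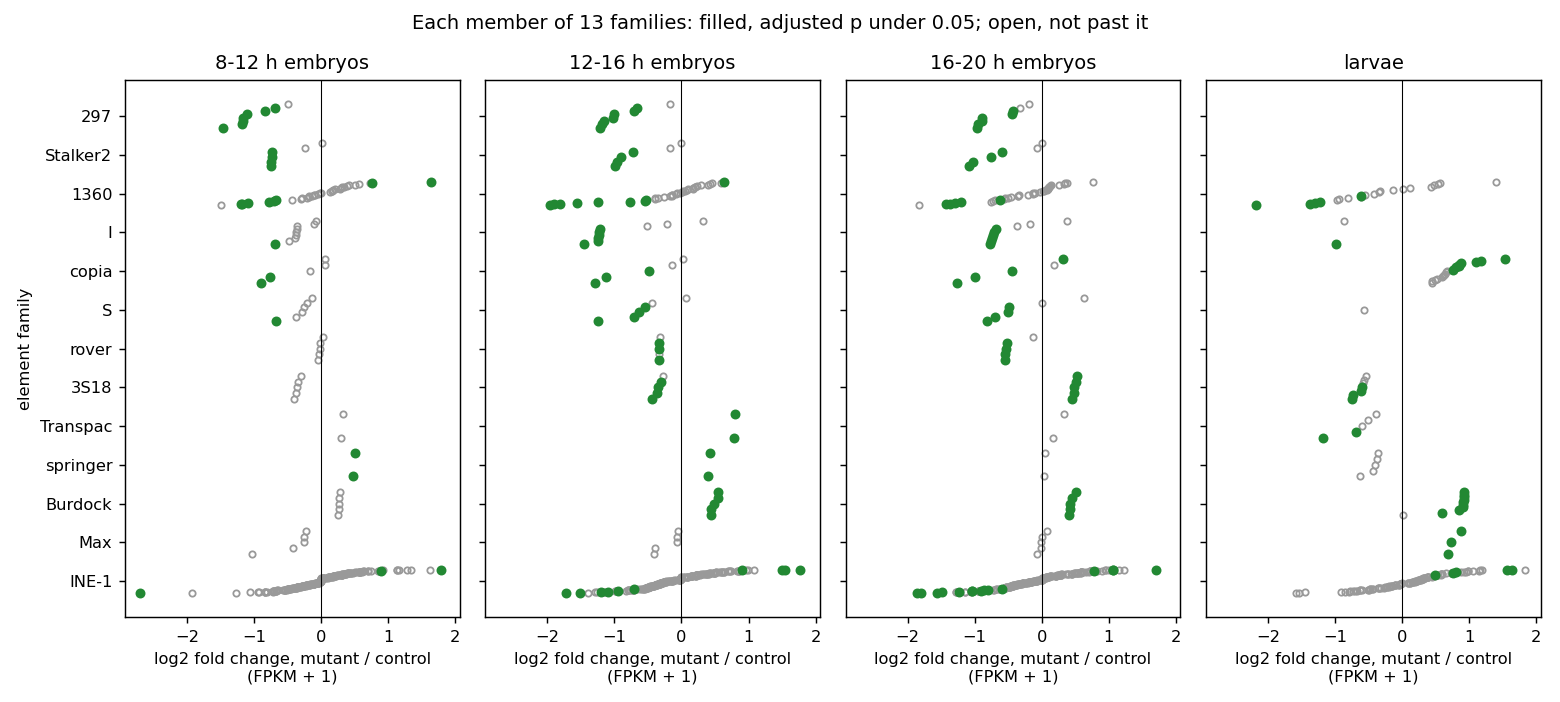
Log2 fold change (mutant over control, FPKM + 1) of each insertion row of 13 element families at the 3 embryo stages and in larvae, filled where the limma adjusted p was under 0.05 and open otherwise. The filled points of 297 and Stalker2 lie left of 0 at the embryo stages, those of Burdock lie right of 0, and those of 3S18 switch sides.

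In larvae 48 of 269 rows passed between genotypes, 30 higher and 18 lower in mutants, which was 17.8% against a background of 9.65% (4.34% higher and 5.31% lower). The groups did not overlap for 92 rows (34.2%), beside 34.9% of all rows. These counts are descriptions too, because 9 larval rows reached an FPKM of 1 in no mutant sample and 10 in no control sample. Such rows of 1 genotype gave 14 of the 48 calls, 7 higher and 7 lower, and the other 34 calls were 23 higher and 11 lower. LTR retrotransposons gave 24 of the 30 rises and 8 of the 18 falls. The count was sensitive to single samples and fell to between 17 and 36 when 1 sample was left out.

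Both rows of gtwin, an LTR retrotransposon of the gypsy group, were over the level in mutant samples only and are given without a test. FBti0215301 (chrX:21836372-21843782, minus strand) had 0.302, 0.448 and 0.667 FPKM in control larvae and 7.99, 10.5 and 8.64 in mutants. Its log2 fold change was 2.77. The nearest annotated gene on its lower side is the piRNA cluster flam, 45641 bp away. The other gtwin row, FBti0019538 (chrX:1628029-1635439, minus strand), overlaps br and Mur2B and had 0.289, 0.415 and 0.614 FPKM in controls and 7.17, 9.28 and 7.73 in mutants. These 2 rows, of 7411 bp each, were alike in every sample, and the genotypes did not overlap in either.

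accord is an LTR retrotransposon with a single row over the level. FBti0018951 (chr2R:12862330-12867554, plus strand) lies in an intron of CG17574 on the opposite strand. It had 4.38, 6.42 and 6.08 FPKM in controls and 34.1, 27.8 and 25.6 in mutants, with a log2 fold change of 2.19 (SE 0.16) and a limma adjusted p of 0.0016. CG17574 itself was higher in mutant larvae, with a log2 fold change of 0.95 and an adjusted p of 0.0097. A 736 bp piece of invader4, FBti0059730, had 1.06, 1.32 and 1.28 FPKM in controls and 7.97, 6.97 and 6.22 in mutants, with a log2 fold change of 1.86 (SE 0.11) and an adjusted p of 0.0007.

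Burdock, copia and Max gave further rises in larvae. Of 10 Burdock rows, 9 were higher, 1 of them a row of 1 genotype, and FBti0019408 had 2.03, 1.99 and 2.85 FPKM in controls and 5.14, 4.96 and 5.59 in mutants (log2 fold change 0.93, SE 0.12, limma adjusted p = 0.012). Of 19 copia rows, 8 were higher, 1 of them a row of 1 genotype, and none lower, with a median log2 fold change of 0.67. Among the other copia rises, at least FBti0020099 also met the level through mutant samples. All 3 Max rows were higher. FBti0063720, which lies 254 bp from the cytochrome P450 gene Cyp6a8, had 3.84, 4.37 and 5.59 FPKM in controls and 9.28, 9.72 and 8.51 in mutants. Its adjusted p of 0.016 did not hold in 3 of 6 fits that left out a sample. The mean FPKM of Cyp6a8 was 12.0 in controls and 29.2 in mutants.

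TART-A, a telomeric non-LTR retrotransposon, gave the largest falls in larvae on the log2(FPKM + 1) scale, apart from a 61 bp piece of 1360. That scale understates changes of low rows, and some of these, such as 1360 FBti0020155 below, fell by a larger ratio of FPKM. FBti0102102 (chr4:1333119-1345424, minus strand) had 10.6, 13.4 and 12.5 FPKM in controls and 2.64, 3.12 and 2.11 in mutants. The neighbouring row FBti0102104 (chr4:1320141-1332489, minus strand) had 10.6, 13.3 and 12.5 in controls and 2.63, 3.11 and 2.10 in mutants. The groups did not overlap, and the log2 fold changes were -1.87 and -1.86 (SE 0.14), each with a limma adjusted p of 0.0015. HeT-A, the other telomeric family with rows over the level, had 4 rows and none passed, with log2 fold changes between -0.47 and 0.01. The lowest of these was FBti0102111, a row of 1 genotype that was over the level in control samples only. It had 1.07, 1.30 and 1.02 FPKM in controls and 0.468, 0.534 and 0.592 in mutants, without overlap.

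Among other falls in larvae, the Transpac row FBti0019444 had 24.8, 24.9 and 34.2 FPKM in controls and 12.3, 11.6 and 11.2 in mutants, with a log2 fold change of -1.17 (SE 0.14) and a limma adjusted p of 0.0081. Of the 2 rooA rows, both on chromosome 4, FBti0020410 was over the level in control samples only. The other, FBti0020417, in an intron of PMCA, fell and had 5.96, 4.76 and 5.63 FPKM in controls and 2.12, 1.90 and 1.43 in mutants. Of 7 rows of 3S18, 4 fell, FBti0062016 from 25.9, 23.9 and 29.8 FPKM to 15.6, 14.0 and 16.6. Of these 4 calls 2 were kept under quantile normalization and 2 under median centring, and that of FBti0062016 was kept in 4 of 6 fits that left out a sample. Of 21 rows of 1360, 5 fell and none rose, but 4 of the 5 were rows of 1 genotype. One of these, FBti0020155, lies in an intron of Indy on its strand and had 2.82, 2.12 and 3.27 FPKM in controls and 0.590, 0.477 and 0.244 in mutants. Indy itself fell, with a log2 fold change of -0.62 and a limma adjusted p of 0.034. FBti0060069, a 61 bp piece of 1360 in an exon of Nsun2, passed with fewer than 10 fragments in every sample.

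**Figure D4:**
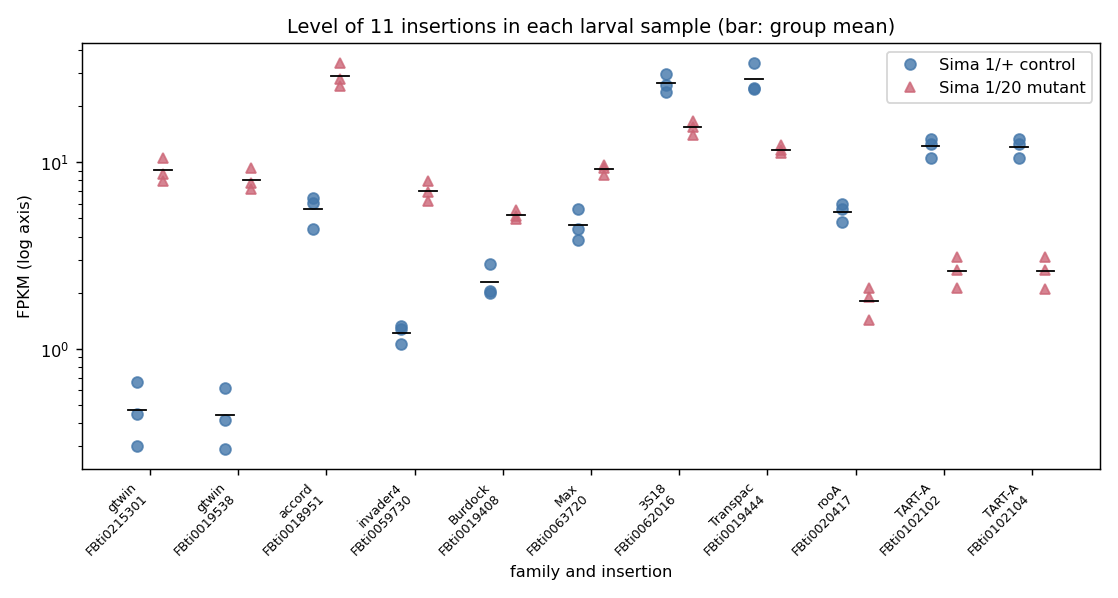
FPKM (log axis) of 11 insertions in each of the 6 larval samples, with circles for Sima 1/+ controls, triangles for Sima 1/20 mutants and bars at the group means. The genotypes are separate for each of the 11, from gtwin on the left, higher in mutants, to TART-A on the right, lower in mutants.

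The embryo and larval tables were scaled separately, so their levels are set side by side and were not tested against each other. Only 105 insertion rows were tested in both tables, and 24 of these were called in larvae. Of the 24, 14 were also called at 12-16 h (58.3% of 24 and 46.7% of 30), 10 in the same direction and 4 in the opposite one. Likewise 14 were also called at 16-20 h (58.3% of 24 and 51.9% of 27), 7 in each direction. Over all 5370 rows tested in both tables, the calls shared with larvae were 32.2% of 553 and 9.56% of 1861 at 12-16 h, and 27.7% of 553 and 16.7% of 916 at 16-20 h. Of these shared calls 77.5% and 79.1% had the same direction, beside 71.4% and 50% for insertion rows. At 8-12 h 1 insertion row was shared with larvae (4.17% of 24), in the opposite direction. Over all rows it was 12.3% of 553, with 54.4% in the same direction. No test of these overlaps was made. Burdock was higher in mutants in larvae and at the 2 later embryo stages. The I row FBti0019446, in an intron of trv, was lower at those stages, and in larvae it was over the level in control samples only. In contrast, copia FBti0020099 was lower in mutants at all 3 embryo stages, for example 0.959, 1.06 and 0.814 against 3.14, 3.32 and 2.27 FPKM at 16-20 h. In larvae it was higher, with 6.70, 4.16 and 3.59 against 0.726, 0.951 and 1.26 FPKM (log2 fold change 1.53, limma adjusted p = 0.014). Of these control values only 1.26 was over an FPKM of 1. In larvae this copia row thus met the level through mutant samples, so its p-value is no support for an effect of genotype. Transpac FBti0019444 was higher in mutant embryos at 12-16 h and lower in mutant larvae, where 2 of 5 Transpac rows were called, and 1 of 5 under median centring. The other called row, FBti0019334, lost its larval call in all 6 fits that left out a sample. In all, 27 rows were called in the same direction in 3 of the 4 comparisons, of which 21 were lower and 6 higher, and none in all 4. Of the 21, 13 were rows of 1 genotype in a table. The 6 higher ones were the 5 Burdock rows and INE-1 FBti0062497. Of these, at least Burdock FBti0019408 met the embryo level largely through mutant samples. The 3 embryo comparisons use different samples, and rows of a family may share fragments.

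Insertion rows also changed with stage, but in smaller shares than all rows. In control embryos, from 8-12 h to 12-16 h 118 of 461 rows (25.6%) passed, 63 higher and 55 lower. The background was 65.0%, 34.4% higher and 30.6% lower. From 12-16 h to 16-20 h 138 (29.9%) passed, 63 higher and 75 lower, against 64.9%, 36.2% higher and 28.7% lower. In mutants 119 (25.8%) passed at the first step, 37 higher and 82 lower, against 61.9%, 33.9% higher and 28.0% lower. At the second step 96 (20.8%) passed, 59 higher and 37 lower, against 60.6%, 34.1% higher and 26.5% lower. The split depends on scaling. Quantile normalization moved the median of all rows by -0.17 and -0.28 at the control steps, and the share of called rows that were higher went from 53.4% and 45.7% to 17.7% and 22.5%. Median centring moved it by -0.24 and -0.19 and gave shares of 23.7% and 25%. At the mutant steps the shares of 31.1% and 61.5% became 8.33% and 40.2% with quantile normalization and 15.5% and 35.5% with median centring. Among the 200 rows with at least 10 fragments in at least 3 samples, 41.5% and 46.5% passed at the control steps. At the mutant steps 39.5% and 34.5% of these rows passed, so the gap to all rows was narrower for them. The background was not limited by fragments in this way.

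The sharpest course was that of an element annotated as X. FBti0019316 (chr3R:6238282-6238860, plus strand) lies between the Osiris genes Osi6, 1101 bp away, and Osi7, 10134 bp away, both on the strand of the insertion. Its FPKM was 0.387, 2.38 and 1.49 in 8-12 h controls, 17.2, 27.2 and 52.7 in 12-16 h controls, and 0.397, 0 and 0 in 16-20 h controls. Mutants ran from 0.787, 5.13 and 2.51 through 89.7, 13.1 and 55.4 to 0 in all 3. The mean FPKM of Osi6 in controls at these stages was 162, 2083 and 4.67, so both had their highest mean at 12-16 h. The log2 changes of the insertion in controls were 3.73 and -4.76 (SE 0.60), with limma adjusted p of 5.9e-05 and 4.1e-06.

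INE-1 FBti0063676 (chr3L:6133987-6134395, plus strand) lies between the larval cuticle protein genes Lcp65Ag2 and Lcp65Ag1, 394 and 302 bp from them and on the opposite strand. It had 0.981, 1.94 and 2.18 FPKM in 12-16 h controls and 21.3, 18.4 and 9.71 in 16-20 h controls, a log2 change of 2.66 (SE 0.35, limma adjusted p = 7.6e-06). Lcp65Ag1 rose over the same groups from a mean FPKM of 575 to 13440. accord FBti0018951, whose host CG17574 went from 1.13 to 3.22, had 0.860, 1.12 and 1.25 FPKM in 12-16 h controls and 7.61, 7.07 and 8.06 in 16-20 h controls. That is a log2 change of 2.05 (SE 0.13, adjusted p = 1.4e-09). Doc FBti0019430 (chr3R:25324412-25328927, minus strand) overlaps exon sequence of CHKov1 on its strand. It had 3.29, 3.88 and 5.06 FPKM in 8-12 h controls and 11.9, 12.7 and 12.0 at 12-16 h (log2 change 1.39, adjusted p = 1.8e-06), while the mean of CHKov1 went from 3.32 to 8.26.

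**Figure D5:**
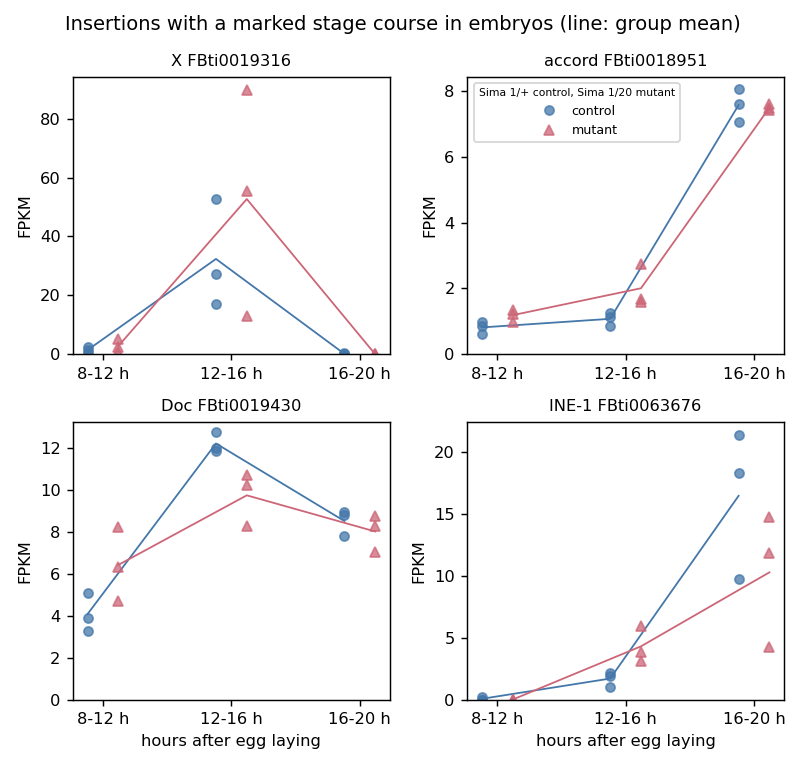
FPKM of 4 insertions in each of 18 embryo samples by hours after egg laying, with circles for Sima 1/+ controls, triangles for Sima 1/20 mutants and lines through the group means. The X element peaks at 12-16 h, accord and INE-1 FBti0063676 are highest at 16-20 h, and Doc rises by 12-16 h in both genotypes.

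INE-1 FBti0061580, in an intron of CanA1, had 0, 0 and 1.69 FPKM in 12-16 h controls and 7.85, 9.72 and 12.5 in 16-20 h controls. The mean of CanA1 was 0.141 at 12-16 h and 17.4 at 16-20 h.

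Family courses in controls were as follows. Both springer rows rose at both steps, with median log2 changes of 0.72 and 0.93. Of 9 rows of the I element, 8 rose at the first step and 8 fell at the second. Stalker2 and diver rose at the second step in 4 of 6 and 4 of 4 rows. roo fell in 5 of 8 rows and both 1731 rows fell at the first step. The rises of all 5 rows of Burdock, copia and rover at the first step depend on scaling: under quantile normalization all 5 Burdock rows, all 5 rover rows and 4 of 5 copia rows had the opposite sign, and none of these rises held under median centring.

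Insertions were set beside the genes that hold them. Over 181 pairs of an intronic insertion and a tested host gene, Pearson's r of the log2 fold changes was -0.03 at 8-12 h, 0.09 at 12-16 h and 0.07 at 16-20 h. Over 118 pairs in larvae it was 0.36. These correlations are across genes of the same libraries, pairs share hosts and families, and no p is given. At 12-16 h 30 intronic insertions with a tested host were called, and 16 of them had the sign of the host. Where both insertion and host were called, 4 of 7 intronic pairs shared a sign at 12-16 h and 4 of 5 at 16-20 h. Over 18 pairs of an insertion that touches an exon, r was 0.14, 0.24 and 0.50 at the 3 embryo stages, and over 14 pairs in larvae it was 0.31.

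Genes of the silencing machinery were measured in the same samples. Of the 25 listed genes of piRNA biogenesis and its effectors, 15 are in the part of the embryo table analysed here. Of these 15 genes 11 were tested, and 1, 6 and 4 were higher in mutants at the 3 stages, while 0, 1 and 0 were lower. Of 13 listed genes of transcriptional silencing, 7 are in that part and were tested, with 0, 5 and 5 higher and none lower. The other listed genes have no row there, so nothing is known here of their level in embryos. tej, which encodes a Tudor protein of the germ line piRNA pathway, had a mean FPKM of 2.18 ± 0.95 in 12-16 h controls and 20.0 ± 7.76 in mutants (SD over 3 samples; fold 2.71 in log2, limma adjusted p = 0.00011). At the same stage nxf2, part of the complex that silences transposons in the nucleus, was 1.33 ± 0.678 and 9.30 ± 4.03 (2.12, adjusted p = 0.0005). mael was 1.51 ± 0.898 and 10.1 ± 4.89 (2.12, adjusted p = 0.00057). spn-E was 1.22 ± 0.679 and 8.59 ± 3.46 (2.10, adjusted p = 0.00037). egg, which encodes a histone H3 lysine methyltransferase, was 4.84 ± 0.468 and 19.5 ± 8.25 (1.75, adjusted p = 0.00038). tud was lower, with 29.8 ± 3.81 and 21.3 ± 2.89 (-0.47, adjusted p = 0.0079). In larvae, of 12 tested genes of each list, only tej of the first passed (2.78 ± 0.312 and 6.59 ± 0.840 FPKM) and none of the second. Of the listed siRNA genes Dcr-2 passed at 12-16 h (log2 fold change 0.51), and the 1 tested gene of piRNA cluster transcription passed at no embryo stage. At 12-16 h the background was 30.4%. By direction, 2.52%, 16.9% and 8.30% of all rows tested were higher at the 3 embryo stages, and 3.33%, 13.5% and 7.35% lower. In larvae the background was 9.65%, with 4.34% higher and 5.31% lower.

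Markers of other RNA sources moved in the same comparisons. Of all rows tested, 2.52%, 16.9% and 8.30% were higher and 3.33%, 13.5% and 7.35% lower in mutants at the 3 embryo stages. In larvae 4.34% of all rows were higher and 5.31% lower. Of 10 tested markers of maternally supplied RNA, 0, 5 and 7 were higher in mutants at the 3 embryo stages and none lower. Their summed FPKM at 12-16 h was 76.0 to 104 in controls and 307 to 605 in mutants, and at 16-20 h it was 78.7 to 109 and 225 to 326. Germ cell markers, of which 2 were tested, gave 1 fall, that of tud at 12-16 h. Late epidermis and cuticle markers gave 2 falls of 6 at 12-16 h and 4 rises at 16-20 h. In larvae, 3 of 6 muscle markers were lower (summed FPKM 9184 to 10209 in controls and 4623 to 6680 in mutants), 2 of 6 gut markers and 2 of 4 nervous system markers higher, and the 4 tested fat body markers passed in neither direction, with sums of 3264 to 4680 and 220 to 2330. Of 6 late epidermis and cuticle markers 1 was lower in larvae, with sums of 384 to 1037 in controls and 32.9 to 324 in mutants and a median log2 fold change of -1.59. Of 5 tested markers of maternally supplied RNA, CycB3 was higher in mutant larvae (log2 fold change 0.49, limma adjusted p = 0.045). Whether these shifts took part in the differences of the insertion rows was not tested, and in whole animals fewer cells of a type and less RNA per cell cannot be told apart.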

How the data were processed

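RNA of whole embryos and larvae was extracted with a column kit, and 2 µg of total RNA went into stranded poly(A) libraries, per the labels. The authors deposited FPKM values, 1 table for 18 embryo samples and 1 for 6 larval samples. The submitters' processing notes name featureCounts, DESeq2 and the build BDGP6. The aligner and the treatment of fragments matching several places are not given in the sources used here. The embryo table stops in the middle of a line. The 14336 rows before it were used.

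Values were tested as log2(FPKM + 1) by limma (3.58.1, under R 4.3.3, moderated with an intensity trend), separately per table, for rows reaching an FPKM of 1 in 3 or more samples, with Benjamini-Hochberg adjustment over all 7267 embryo or 8904 larval rows. One model of 6 group means served the embryos. The fits were tested on simulated data. Names, families, lengths and positions came from the Ensembl annotation of BDGP6. Fragments were recovered as FPKM times span times a denominator per library.

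Named rows were the 4 largest rises and falls past the threshold without overlap per genotype comparison, the 6 highest medians per table, 8 of the rows called alike in 3 comparisons, 3 rises and falls per control stage step, and 2 rows on each side of the level. Rows outside this rule, and the genes tud and Dcr-2, including the longest row of a family with 3 calls, were chosen after their values were seen. The members, gene lists and tests were chosen with earlier results of these data known. Samples of the same replicate number did not deviate together.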

Additional observations from a re-analysis of the deposited data

Results flagged for a closer look

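The genotype effect differed between embryo stages for 11 of the named rows, by limma's moderated F test with adjustment over all rows (26 of 461 insertion rows passed, background 13.0%; 17 of them had at least 10 fragments in at least 3 samples). Of these rows, 297 FBti0020059 (adjusted p 0.040), 1360 FBti0215183 (0.040) and INE-1 FBti0059805 (0.0016) were over an FPKM of 1 in control samples only, so their values support nothing on genotype. The 3S18 rows FBti0062015, FBti0062016 and FBti0018869 had 0.011, 0.0074 and 0.0083, lower in mutants at 12-16 h and higher at 16-20 h. Their 12-16 h genotype calls were kept in 3, 1 and 2 of 6 fits that left out a sample, and their 16-20 h calls in 2, 6 and 3. The adjusted p of the stage difference was 0.019 for I FBti0020189, which met the level through control samples, and 0.046 for Doc FBti0019430. INE-1 rows of under 10 fragments gave 0.018 (FBti0060422), 0.027 (FBti0060394) and 0.026 (FBti0060650).

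Of the named rows, 4 had opposite directions in 16-20 h embryos and larvae, with no overlap between genotypes in either; this difference was not tested, because the tables were scaled separately. The log2 fold changes in larvae were -0.73, -0.75 and -0.58 for the same 3S18 rows, which were higher in mutants at 16-20 h (0.47, 0.51 and 0.46). INE-1 FBti0063703 was 1.19 in larvae and -1.79 at 16-20 h. This row, of 124 bp, had at most 12 fragments in any sample. Its 16-20 h call was kept in 1 of 6 fits that left out a sample.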

How the results depend on the processing

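No named row that was called, or became called, changed sign under any alternative. A minimum FPKM of 5, which leaves 77 embryo and 50 larval rows, gave 11, 21 and 14 genotype calls at the embryo stages, 25 in larvae, 24 and 39 at the control steps, 28 and 32 at the mutant steps and 11 for the stage difference. No share over all rows is given at that minimum, so these counts are a description. Fitting only the 2 groups gave 45 calls at 12-16 h. In larvae no filter gave 29. Quantile normalization gave 192 at the first mutant step, and limma-voom on recovered fragments 61 at the second. The stage difference gave 15 with a pseudocount of 0.1, 16 with no filter and 12 with limma-voom. Leaving out 1 sample gave 20 to 31 calls at 8-12 h, 55 to 72 at 12-16 h, 49 to 62 at 16-20 h, 17 to 36 in larvae, 90 to 106 and 104 to 128 at the control steps, 95 to 112 and 78 to 100 at the mutant steps, and 13 to 31 for the stage difference. The lowest counts came without 8-12 h mutant replicate 2 (20), larval control replicate 1 (17) and 16-20 h control replicate 2 (13). With the replicate block, which rests on a shared number only, the calls were 28, 62 and 53 in embryos and 18 in larvae, against 33, 76, 72 and 48 without it.

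Rows with at least 10 fragments in at least 3 samples were an alternative chosen after seeing the data. They gave 31, 65, 58 and 40 genotype calls, 79 at the first mutant step and 17 for the stage difference. As shares of these 200 embryo and 145 larval rows, the genotype calls were 15.5%, 32.5%, 29% and 27.6%. The other 2, 11, 14 and 8 calls came from rows with so few fragments that 1 fragment more or less moves the FPKM in a large step. Fragment counts cover counting error only.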
